A study of Mus musculus with 7 samples.

Results

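Transcripts of 7 genes for subunits of the GABA-A receptor, Gabra2, Gabra3, Gabra4, Gabra5, Gabrb1, Gabrb2 and Gabrd, were measured by RNA sequencing in mouse brain, in pieces that the labels call cortical plate, at 2 ages. They were chosen by gene name and are 7 of the 53801 genes in the deposited sheets. Other subunit genes of the receptor are not analysed here. The adult group held 3 libraries from C57BL/6J females aged 10.5 months that carried CamK II-Cre tg. Of these, replicates 1 and 3 were Atr fl/+ and replicate 2 was Atr +/+. The embryonic group held 4 C57BL/6J libraries of embryonic day 14.5 (E14.5), replicates 1 and 4 male and replicates 2 and 3 female, and every one was Nbs1 fl/+ and carried Nestin-Cre tg. By the label dates each E14.5 brain was isolated 12 days after the plug, which does not match embryonic day 14.5. The labelled stage is kept as the group's name. CamKII promoters drive Cre in forebrain excitatory neurons and the Nestin promoter drives it in neural progenitors. The ages also differed in library kit, in Cre line and in the floxed gene, so these cannot be told apart from age, and no group was free of Cre. Adult replicate 2 and E14.5 replicates 1 and 4 differ from the others of their age in sex, plug date or genotype, and so came from different animals. Adult replicates 1 and 3 carry the same labels, as do E14.5 replicates 2 and 3, and these are not stated to be separate animals, so that the spread within these pairs may be technical.

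GABA-A receptors are chloride channels built of 5 subunits around a pore, opened by GABA, the main inhibitory transmitter of the adult brain. Alpha and beta subunits form the site for GABA, and the alpha subunit sets how fast and how strongly a receptor responds. Receptors with alpha 2, 3 or 5 can bind classical benzodiazepines, whereas those with alpha 4 do not, and the delta subunit joins alpha 4 in receptors outside the synapse that respond to ambient GABA. In embryonic cortex GABA acts before synapses are mature and can depolarise cells, and subunit usage is known to change as the cortex develops.

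All 7 genes encode the stretch between a pair of cysteines that gives this receptor family its name, the Cys-loop. The coding stretches are shown because they show how alike the subunits are in coding bases. Each was found by a search for a pair of cysteines at this spacing. Sequences are from GENCODE M21 transcripts on GRCm38, coding strand, 45 bases each, with the codons of both cysteines in capitals.
Gabra2, chr5:71012720-71012764, minus strand, exon 6: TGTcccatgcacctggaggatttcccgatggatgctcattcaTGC
Gabra3, chrX:72476245-72476289, minus strand, exon 6: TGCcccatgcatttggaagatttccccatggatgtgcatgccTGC
Gabra4, chr5:71640847-71640891, minus strand, exon 5: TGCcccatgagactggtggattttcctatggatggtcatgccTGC
Gabra5, chr7:57452964-57453008, minus strand, exon 6: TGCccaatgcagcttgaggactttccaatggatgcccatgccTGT
Gabrb1, chr5:72029846-72029890, plus strand, exon 5: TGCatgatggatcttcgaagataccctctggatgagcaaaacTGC
Gabrb2, chr11:42529431-42529475, plus strand, exon 5: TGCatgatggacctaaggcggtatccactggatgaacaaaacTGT
Gabrd, chr4:155387877-155387921, minus strand, exon 5: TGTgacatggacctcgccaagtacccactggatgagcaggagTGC
Gabrb1 and Gabrb2 matched at 35 of the 45 bases, and Gabra2 and Gabra3 at 36. Gabra3 and Gabrb2 matched at 22. Whether sequenced reads can be told apart between the genes was not tested.

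A second coding stretch separates the alpha subunits by drug response. In 36 bases of the outer domain, the codon in capitals is for histidine in Gabra2, Gabra3 and Gabra5 and for arginine in Gabra4, the residue known to decide whether classical benzodiazepines bind. Gabra2 and Gabra3 matched at 33 of these 36 bases.
Gabra2, chr5:71014493-71014528, minus strand, exon 5: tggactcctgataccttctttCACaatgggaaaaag
Gabra3, chrX:72501156-72501191, minus strand, exon 5: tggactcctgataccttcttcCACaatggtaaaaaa
Gabra5, chr7:57488879-57488914, minus strand, exon 5: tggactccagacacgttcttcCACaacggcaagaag
Gabra4, chr5:71641140-71641175, minus strand, exon 4: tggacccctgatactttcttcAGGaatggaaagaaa

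The libraries held 27327927 to 29996018 counts in adults and 32533065 to 43197226 at E14.5, and each member was covered by at least 1532 counts in every adult library and 31 in every E14.5 library. Values below are counts scaled to CPM with library sizes adjusted by the trimmed mean of M-values (normalised CPM) unless RPKM (reads scaled by gene length and library total) is named. All 7 members passed the filter on low counts, and all 7 rose in adults (quasi-likelihood test of edgeR, p under 0.05 after Benjamini-Hochberg adjustment). Of the 20800 genes tested 86.4% changed, 41.7% upward and 44.7% downward, so a change alone is common in this comparison. Their median log2 fold change was 4.21, against -0.08 over all genes tested. For each member every adult library lay above every E14.5 library; the ages were without overlap for 85.3% of all genes tested. The size of the rise differed widely, from 2.09-fold for Gabra2 to 79.2-fold for Gabrd. In pieces of whole tissue, fewer cells of a type and less RNA per cell cannot be told apart. All 6 markers of mature neurons rose too, with summed levels of 7565 to 8158 normalised CPM in adults and 222 to 292 at E14.5. All 6 radial glia markers fell, to 101 to 109 summed normalised CPM in adults, against 1985 to 2059 at E14.5. All 6 newborn neuron markers fell too, to sums of 567 to 607 in adults, against 2684 to 3106 at E14.5. All 6 oligodendrocyte markers rose, with sums of 5544 to 5795 normalised CPM in adults and 29.4 to 32.1 at E14.5. Mitochondrially encoded genes took 7.74% to 8.51% of counts in adults and 2.22% to 2.36% at E14.5. The part of each of these shifts in the subunit values was not tested. Markers of cortical excitatory neurons were present at both ages, with sums of 5509 to 6063 normalised CPM in adults and 302 to 361 at E14.5. The 7 thalamic markers summed to 198 to 209 normalised CPM in adults and 566 to 642 at E14.5; of the 6 that were tested 1 rose and 5 fell. Most of the E14.5 sum was Lhx2, which averaged 50.2 in adults and 416 at E14.5. Slc17a6, which is also on the list of cortical excitatory neurons, averaged 37.3 in adults and 84.9 at E14.5. The sum is therefore not a measure of thalamic tissue alone. Of the 7, Gbx2 was at or near 0 at both ages, whereas Lhx9 averaged 2.77 in adults and 45.2 at E14.5 and Rora 96.6 in adults and 3.91 at E14.5.

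**Figure D1:**
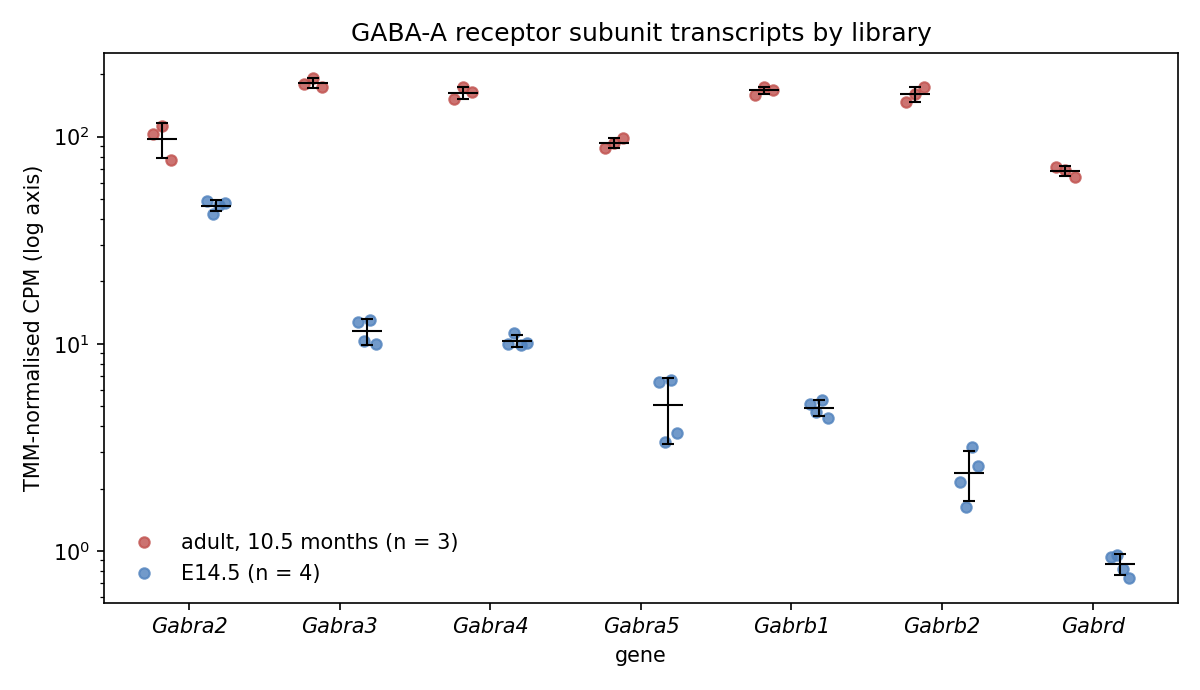
Normalised CPM (log axis) of the 7 subunit genes in each library, with adult libraries (n = 3) on the left and E14.5 libraries (n = 4) on the right of each gene, and bars for the mean and SD. Adults lay between 64.1 and 192 for all 7 genes, while E14.5 values ran from 0.743 for Gabrd to 48.9 for Gabra2.

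Gabra2, whose subunit is common in young neurons and at the first segment of the axon, was the member with the most transcript at E14.5 and the smallest rise. It had 103, 112 and 76.8 normalised CPM in adult replicates 1, 2 and 3, against 48.9, 42.4, 46.8 and 47.7 in E14.5 replicates 1 to 4. Adult replicate 3 was the low adult library and still lay above every E14.5 library. The fitted rise on the log2 scale was 1.07 (SE 0.11, adjusted p = 3.4e-06 in edgeR), a size that 26.5% of all genes tested reached or exceeded. With offsets for GC content and transcript length it was 0.39, a 1.31-fold rise (edgeR adjusted p = 0.0086), and 1.21 without adult replicate 3. In adult replicate 3 the 11 markers of ganglionic eminence and striatum summed to 279 normalised CPM, against 196 and 209 in adult replicates 1 and 2. The 5 markers of the hippocampal dentate gyrus, all of which rose with age, were also highest in that library, at 89.1 against 63.7 and 73.8. The part of either list in its Gabra2 level was not tested.

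Gabra3, on the X chromosome, encodes a subunit abundant in deep cortical layers and in monoaminergic nuclei. Adult replicates had 179, 192 and 173 normalised CPM, against 12.7, 10.3, 13.1 and 10.0 in the E14.5 replicates. The adult libraries lay close together and the groups were far apart. The rise was 3.98 on the log2 scale (SE 0.093; adjusted p = 1.7e-11 in edgeR).

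Gabra5 encodes the subunit of receptors known for tonic inhibition in hippocampal pyramidal cells. Its levels were 88.2, 93.2 and 98.6 normalised CPM in adults, against 6.51, 3.36, 6.67 and 3.70 at E14.5. E14.5 replicates 1 and 3 were higher than replicates 2 and 4, and the coefficient of variation was 5.59% in adults and 35.1% at E14.5, the largest of the 7 genes at that age. On the log2 scale the rise was 4.21 (SE 0.19; adjusted p = 2.8e-09 in edgeR). The 11 markers of ganglionic eminence and striatum summed to 161 and 101 normalised CPM in E14.5 replicates 1 and 3. In replicates 2 and 4 their sums were 67.5 and 75.6. Not every gene of the list split this way, and Nkx2-1 and Isl1 were lowest in replicate 3, at 0.394 and 0.0788. Other marker sums split the same libraries. Mature neuron markers were at 264 and 292 in replicates 1 and 3 and 222 and 231 in replicates 2 and 4, astrocyte markers at 216 and 192 against 155 and 170.5, and interneuron markers at 98.1 and 83.2 against 59.6 and 70.1. The astrocyte sum at E14.5 was mostly Slc1a3 and Slc1a2, with means of 128 and 44.4 normalised CPM, while Gfap averaged 0.427 and S100b 0.174. The part of these marker lists in the spread of Gabra5 was not tested. Exons of an opposite-strand gene cover 4.98% of Gabra5 exon bases, a stretch in which reads cannot be assigned to a strand at E14.5, where the kit does not mark it.

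Gabra4, the benzodiazepine-insensitive alpha member, partners delta in the forebrain. Adults had 152, 173 and 163 normalised CPM, against 9.96, 11.3, 9.90 and 10.1 at E14.5. Replicate 2 stood above the other E14.5 libraries by a small amount next to the distance between the ages. The log2 fold change was 3.98 (SE 0.066, edgeR adjusted p = 2e-12), close to that of Gabra3.

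Both beta members had larger fitted fold changes than any alpha member. Gabrb1, whose subunit is found with alpha 2 and in astrocytes, had 159, 173 and 169 normalised CPM in adults, against 5.14, 4.69, 5.36 and 4.40 at E14.5. Its log2 fold change was 5.09 (SE 0.070, edgeR adjusted p = 8.3e-13), or 4.34, a 20.2-fold rise, with offsets for GC content and transcript length. The 6 astrocyte markers all rose, with sums of 5067 to 5226 normalised CPM in adults and 155 to 216 at E14.5, and their part in the Gabrb1 values was not tested. The E14.5 sums were mostly Slc1a3 and Slc1a2, whereas Gfap, S100b and Aqp4 averaged 0.427, 0.174 and 1.16 at that age. Gabrb2, the partner in the most common adult synaptic receptors, had 146, 161 and 174 normalised CPM in adults, against 2.16, 1.64, 3.18 and 2.56 at E14.5. Its log2 fold change was 6.07 (SE 0.14, edgeR adjusted p = 1.4e-11). The E14.5 values of Gabrb2 rest on 60 to 124 counts and had a coefficient of variation of 27.3%, a spread small next to the distance between the ages.

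Gabrd, the delta subunit of extrasynaptic receptors that are sensitive to neurosteroids, was the scarcest member at E14.5 and rose the most. Adults had 71.3, 69.3 and 64.1 normalised CPM, against 0.934, 0.955, 0.814 and 0.743 at E14.5. Each E14.5 library held only 31 to 42 Gabrd counts, and no library came near the other group. The log2 fold change was 6.31 (SE 0.088, edgeR adjusted p = 8.8e-13), a value that 2.35% of all genes tested reached or exceeded.

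**Figure D2:**
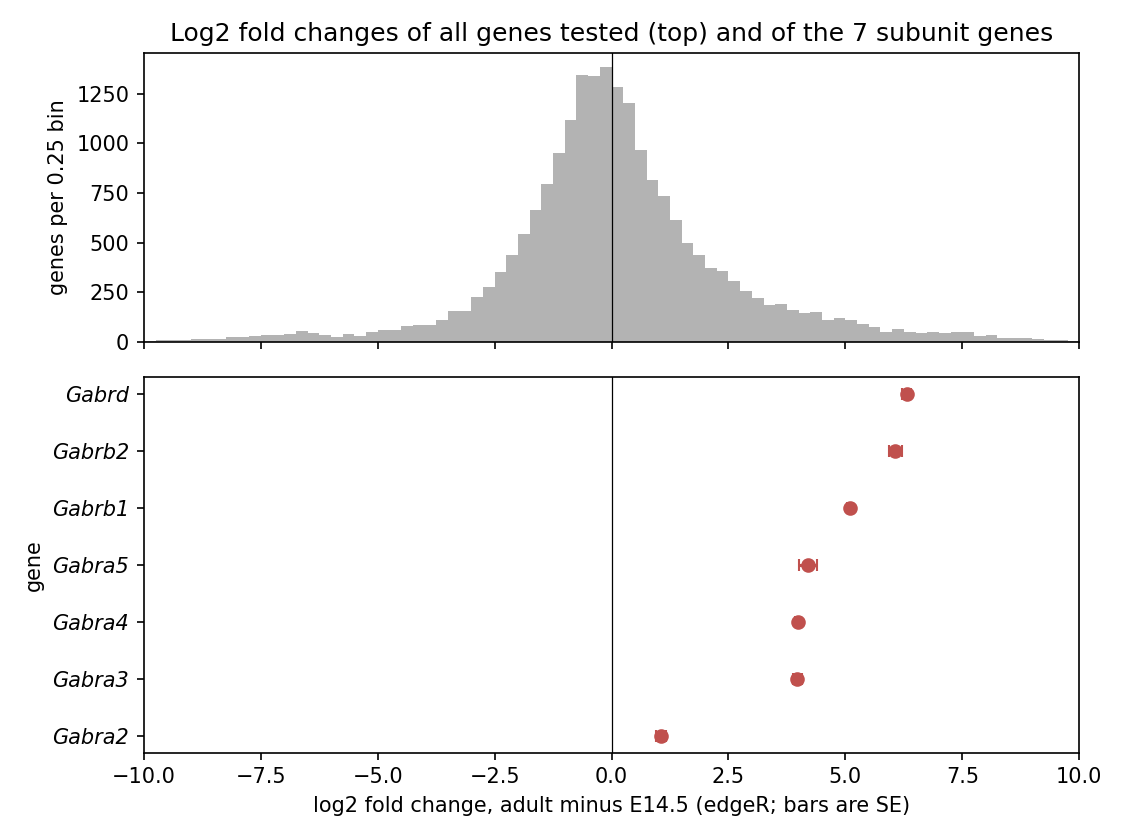
The top panel counts all 20800 genes tested by log2 fold change, adult minus E14.5, in bins of 0.25 (log2 values beyond the axis limits are not drawn), and the lower panel gives the 7 subunit genes with SE bars. The subunit genes lie from 1.07 for Gabra2 to 6.31 for Gabrd, all above the median of all genes at -0.08.

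RPKM, which here divides by all annotated exon bases of a gene, allowed the members to be ranked within an age. These bases outnumber those of the longest transcript, at 6083 against 4108 for Gabra4 and 6360 against 3989 for Gabrb2. For Gabra5 they are 2974 against 2671. The order among these genes therefore depends on the length used. In adults Gabra3 was first at 39.2 ± 1.85 RPKM (SD, n = 3). Gabra5 followed at 26.6 ± 1.59 RPKM and Gabra4 at 22.7 ± 1.42 RPKM, with ranges that did not overlap their neighbours above. Gabrb2 had 21.4 ± 1.93 RPKM and Gabrd 20.1 ± 1.02 RPKM, and the ranges of Gabra4, Gabrb2 and Gabrd overlapped from each to the next. Gabra2 at 10.8 ± 1.99 RPKM and Gabrb1 at 10.2 ± 0.425 RPKM came last and overlapped each other.

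At E14.5 the order of RPKM was different. Gabra2 was first at 6.87 ± 0.463 RPKM (SD, n = 4), ahead of Gabra3 at 3.32 ± 0.483 RPKM, without overlap. Gabra5 at 1.93 ± 0.686 RPKM and Gabra4 at 1.92 ± 0.123 RPKM could not be separated. Gabrb2 at 0.423 ± 0.114 RPKM, Gabrb1 at 0.400 ± 0.0372 RPKM and Gabrd at 0.339 ± 0.0419 RPKM formed the bottom of the order with overlapping ranges. The beta and delta members were thus low relative to the alpha members at E14.5, with 2.64 ± 0.133% of the summed RPKM of the 7 genes for Gabrb1, 2.77 ± 0.637% for Gabrb2 and 2.25 ± 0.357% for Gabrd. In adults the same shares were 6.78 ± 0.138% for Gabrb1, 14.2 ± 1.21% for Gabrb2 and 13.3 ± 0.886% for Gabrd. The RPKM length of Gabrb1, 13838 bases, is the longest of the 7, and 1 of its transcripts alone has 13737 bases.

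The share that each alpha gene took of the RPKM summed over the 4 alpha members does not depend on library scaling. It does depend on the gene lengths used. Gabra2 made up 10.9 ± 1.77% in adults and 49.2 ± 3.22% at E14.5 (SD, n = 3 and 4). By library its share was 11.8%, 11.9% and 8.80% in adults, against 47.5%, 49.7%, 46.0% and 53.4% at E14.5. Gabra3 made up 39.4 ± 0.733% in adults and 23.6 ± 1.34% at E14.5, and was the leading alpha member in each adult library, as Gabra2 was in each E14.5 library. Gabra5 made up 26.8 ± 1.93% in adults and 13.5 ± 3.57% at E14.5. Gabra4 made up 22.9 ± 0.776% in adults and 13.8 ± 2.14% at E14.5. For all 4 shares the groups did not overlap, and the exact two-sided permutation p was 0.0571 before and after adjustment over the 4 shares, the smallest that 3 against 4 libraries allow. Shares of 1 total are bound together, so a lower share of Gabra2 means higher shares of the others, although Gabra2 itself rose.

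**Figure D3:**
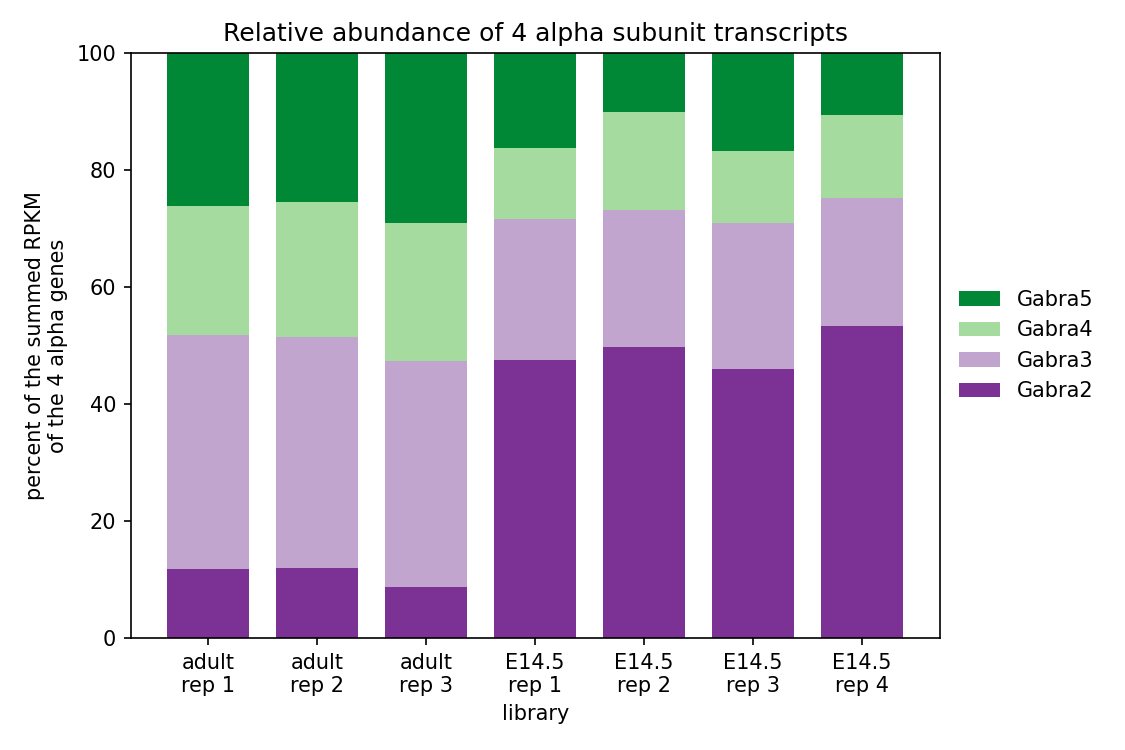
Stacked bars give the percent of the summed RPKM of Gabra2, Gabra3, Gabra4 and Gabra5 in each library, adults on the left and E14.5 on the right. The bottom segment, Gabra2, is 8.80% to 11.9% in adults and 46.0% to 53.4% at E14.5.

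Ratios between members within a library, also free of scaling, gave the test of whether they rose unequally. The log2 ratio of Gabra2 to Gabra4 was -1.09 ± 0.286 in adults and 1.84 ± 0.179 at E14.5 (SD, n = 3 and 4), a difference of -2.92, with no overlap (exact two-sided permutation p = 0.0571, adjusted p = 0.114 over 4 ratios). The log2 ratio of Gabrb1 to Gabrb2 was -1.06 ± 0.0924 in adults and -0.04 ± 0.364 at E14.5, a difference of -1.01, also with no overlap (exact permutation p = 0.0571, adjusted p = 0.114). Neither could pass 0.05 with this number of libraries. Gabra3 and Gabra4 kept a like ratio, with log2 values of 0.79 ± 0.0745 in adults and 0.78 ± 0.267 at E14.5 (exact permutation p = 1, adjusted p = 1), and the difference of 0.0059 moved between -0.09 and 0.09 when each library in turn was left out. The log2 ratio of Gabra5 to Gabra4 was 0.23 ± 0.0839 in adults and -0.06 ± 0.593 at E14.5 (exact permutation p = 0.571, adjusted p = 0.762), where the wide E14.5 spread of Gabra5 limits what could be seen.

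**Figure D4:**
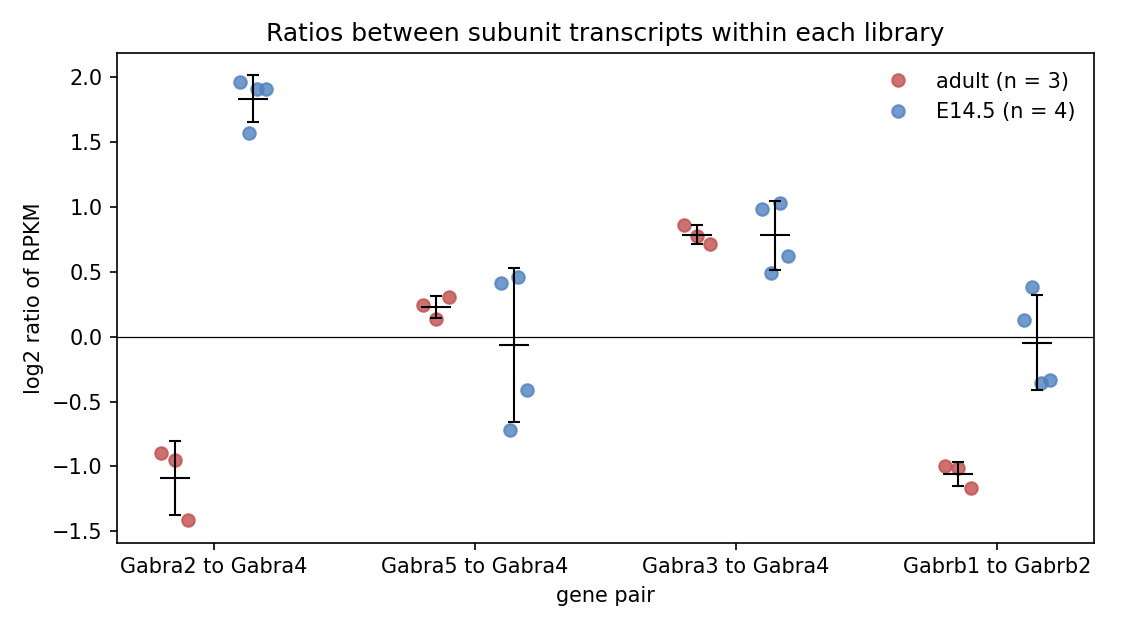
Log2 ratios of RPKM for 4 gene pairs in each library, adults (n = 3) on the left and E14.5 (n = 4) on the right of each pair, with bars for the mean and SD. The adult and E14.5 values are apart for Gabra2 to Gabra4 and for Gabrb1 to Gabrb2, and overlap for Gabra5 to Gabra4 and Gabra3 to Gabra4.

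Neighbours in the genome had unlike rises. Gabra2 (GRCm38 chromosome 5, 70957597 to 71095849), Gabra4 (71569749 to 71658308) and Gabrb1 (71658113 to 72149037) lie in 1 cluster on chromosome 5, and rose 2.09-fold, 15.8-fold and 34.1-fold. Gabra4 and Gabrb1 start head to head on opposite strands, with spans that overlap by 196 bases and exons that overlap by 46 bases. Gabra5 (chromosome 7, 57407672 to 57510059), Gabrb2 (chromosome 11, 42419757 to 42629028), Gabra3 (chromosome X, 72432681 to 72656848) and Gabrd (chromosome 4, 155384980 to 155398112) stand apart from it. With a span of 13133 bases Gabrd is the shortest of the 7 genes, and Gabrb1 with 490925 bases the longest.

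The sequences before the starts of Gabra2 and Gabra4 are shown because these are the alpha genes of 1 cluster with unlike rises, and because the bases before Gabra4 lie within the span of Gabrb1. RefSeq promoter windows on GRCm38.p6 were found for 6 of the 7 genes, Gabrd being the other one. Both stretches are on the minus strand, and capitals mark GC boxes, GGGCGG or its reverse complement CCGCCC.
Gabra2, chr5:71095850-71096099, the 250 bases before the start: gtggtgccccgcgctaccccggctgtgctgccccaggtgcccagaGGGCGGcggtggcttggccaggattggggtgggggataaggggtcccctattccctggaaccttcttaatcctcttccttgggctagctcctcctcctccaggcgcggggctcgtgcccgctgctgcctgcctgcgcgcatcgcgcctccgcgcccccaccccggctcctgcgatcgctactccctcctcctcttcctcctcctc
Gabra4, chr5:71658364-71658558, 195 bases that end 56 bases before the start, outside every annotated exon: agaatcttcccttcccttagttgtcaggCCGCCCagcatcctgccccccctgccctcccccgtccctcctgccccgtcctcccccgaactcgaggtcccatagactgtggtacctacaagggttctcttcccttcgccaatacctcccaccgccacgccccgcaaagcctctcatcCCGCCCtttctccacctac
The Gabra2 stretch is 70.0% G or C with 18 CpG and the Gabra4 stretch 63.6% with 10 CpG. A GC box occurs on either strand in 35.7% of the 32851 RefSeq windows of 300 bases and is a common feature of promoters. Over their own windows of 300 bases, longer than the stretches shown, Gabra2 and Gabra4 each held 2 GC boxes. The TATA box letters TATAAA, held by 13.6% of all windows on either strand, were in neither the Gabra2 nor the Gabra4 window.

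Sex and the Atr allele were looked at where the groups allow. Between 2 male and 2 female E14.5 libraries, none of the 7 genes passed the test (edgeR adjusted p above 0.99 for each), as 10 of 20134 genes (0.0497%) did. For the X-linked Gabra3 the log2 fold change, male minus female, was -0.04 (SE 0.18), with means of 12.9 CPM in males and 13.2 CPM in females when the 4 E14.5 libraries were scaled by themselves. The SE was between 0.08 for Gabra2 and 0.38 for Gabra5, which limits what 2 libraries a sex can show. The females, E14.5 replicates 2 and 3, carry the same labels and are not stated to be separate animals. The SE therefore need not measure variation between animals. Adult replicate 2, the Atr +/+ library, had the highest adult value of Gabra2, Gabra3, Gabra4 and Gabrb1 and lay between the other adult libraries for Gabra5, Gabrb2 and Gabrd. One library allows no test, and the share of all genes that were highest in it was not counted. Adult replicate 2 lay above every E14.5 library for all 7 genes.

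Of the genes listed for the assembly, traffic and anchoring of GABA-A receptors, 16 of 20 rose and 2 fell. Their median log2 fold change was 0.998. Over all genes tested 41.7% rose and 44.7% fell. Iqsec3, an exchange factor that binds the scaffold gephyrin, had 228 ± 7.94 normalised CPM in adults and 10.1 ± 2.34 at E14.5 (SD, n = 3 and 4; log2 fold change 4.50, edgeR adjusted p = 1.1e-10). Nsf, the ATPase that recycles fusion machinery and binds receptor subunits, had 1013 ± 50.3 normalised CPM in adults, against 57.0 ± 3.33 at E14.5. Rdx, whose product radixin anchors alpha 5 receptors to actin, fell to 102 ± 3.56 normalised CPM in adults, against 223 ± 14.2 at E14.5, the opposite direction to Gabra5. Gabarap, a ubiquitin-like protein that binds the receptor in traffic, fell to 111 ± 4.52 in adults, against 201 ± 7.01 at E14.5. Gphn, gephyrin itself, named after its values were seen, had 93.3 ± 5.38 in adults and 39.9 ± 0.304 at E14.5, higher by 1.22 on the log2 scale (adjusted p = 1.1e-09 in edgeR), near Gabra2. Trak1 with 217 ± 5.90 in adults and 225 ± 13.8 at E14.5 and Zdhhc3, a palmitoyltransferase, with 87.4 ± 3.55 in adults and 84.6 ± 2.96 at E14.5 did not pass. This list depended on scaling: with total counts only, 12 genes rose and 5 fell, Nlgn2, Lhfpl4 and Hap1 no longer passed, and Ubqln1, Trak1 and Zdhhc3 were called lower. With offsets for GC content and transcript length 12 rose and 6 fell, and Nlgn2, a synaptic adhesion protein, had a log2 fold change of -0.37, in place of 0.46 (edgeR adjusted p = 0.00014).

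**Figure D5:**
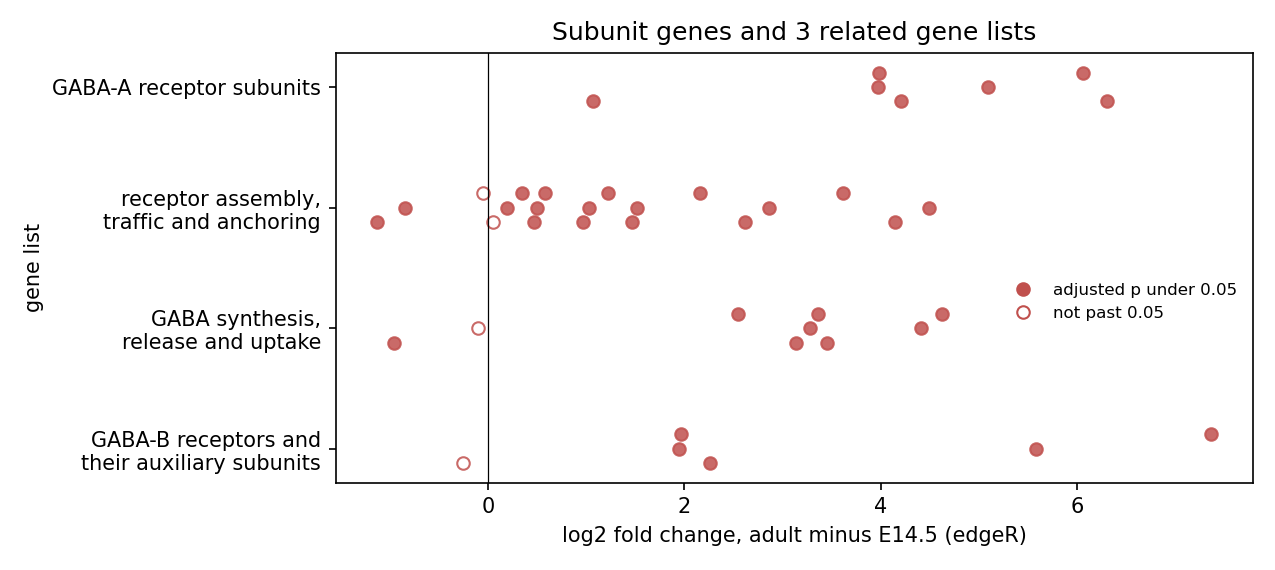
Log2 fold change, adult minus E14.5, of each gene in the subunit list and 3 related lists, filled where the edgeR adjusted p was under 0.05 and open where it was not. The subunit genes lie between 1.07 and 6.31, and the assembly, traffic and anchoring genes between -1.13 and 4.50.

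Genes for GABA synthesis, release and uptake rose in 7 of 9 cases and fell in 1, with a median log2 fold change of 3.28. Over all genes tested these shares were 41.7% and 44.7%. Gad1, which makes GABA, had 421 ± 26.8 normalised CPM in adults and 19.8 ± 8.01 at E14.5. Slc32a1, the vesicular GABA transporter, had 67.6 ± 2.91 in adults and 6.13 ± 2.14 at E14.5, and Slc6a11, an astrocyte GABA transporter, 146 ± 9.89 in adults and 5.91 ± 2.70 at E14.5 (edgeR adjusted p = 1.5e-08, 1.6e-08 and 1.3e-08). Slc6a13, a GABA transporter of the meninges, fell to 6.65 ± 1.11 in adults, against 12.9 ± 3.49 at E14.5 (edgeR adjusted p = 0.00092), and Slc6a12 had 0.595 ± 0.103 in adults and 0.634 ± 0.117 at E14.5 and did not pass. Markers of cortical interneurons rose in 6 of 7 cases, with sums of 858 to 936 normalised CPM in adults and 59.6 to 98.1 at E14.5, and their part was not tested.

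Of 6 genes for the metabotropic GABA-B receptor and its auxiliary subunits, 5 rose, with a median log2 fold change of 2.11. Gabbr2, the subunit that couples to G proteins, had 346 ± 10.2 normalised CPM in adults and 7.18 ± 1.13 at E14.5. Kctd12, an auxiliary subunit, had 107 ± 5.94 in adults and 22.4 ± 2.91 at E14.5. Kctd16, another auxiliary subunit, had 6.48 ± 0.796 in adults, against 1 or 2 counts in each E14.5 library. Kctd12b, with 5.35 ± 0.314 in adults and 6.41 ± 1.23 at E14.5, did not pass (edgeR adjusted p = 0.13), and was called lower in 7 alternatives, among them upper-quartile and total-count scaling (edgeR adjusted p = 0.038 and 0.0021) and the test without E14.5 replicate 3 (adjusted p = 0.046). Median shifts of these lists stand beside -0.08 for all genes tested, and their counts beside 41.7% that rose and 44.7% that fell.

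Among the other members and these 35 genes, the gene with the most similar profile of log2(RPKM + 0.5) over the 7 libraries was found for each member by Euclidean distance, a measure set mainly by the level at each age. Gabrb2 and Gabrd were nearest to each other, at a distance of 0.578 (log2 units). The nearest to Gabra3 was Gad1 at 0.869, that to Gabra4 was Gabra5 at 0.910, and that to Gabra5 was Slc32a1 at 0.909. Gabrb1 was nearest to Iqsec3 at 1.42, and Gabra2 to Arfgef2, an exchange factor of the secretory pathway, at 1.44, the longest of these distances.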

How the data were processed

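Per the labels' protocols, adult libraries were made with TruSeq stranded mRNA and E14.5 libraries with TruSeq RNA v2, a kit without strand information. Tools were featureCounts 1.5.0, TopHat2 2.1.0 and bcl2fastq 1.8.4 on GRCm38, per the submitters' processing notes. How strand was set in counting, and the annotation release, is not given in the sources used here. For each gene the authors deposited read counts, RPM and RPKM. From the values, deposited RPM were counts scaled by the library total, and deposited RPKM divided these by the annotated exon length. GENCODE M21 held 53620 of the 53801 identifiers and gave positions and overlaps; 66 symbols were blank.

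The test on counts was that of edgeR 4.0.16, R 4.3.3 (quasi-likelihood F test, TMM, filterByExpr with minimum count 10 and total 15, age as only term, adjustment over all genes tested). SE is the log2 fold change over the square root of F. Normalised CPM are CPM of the TMM-scaled library size. Shares and ratios used RPKM (0.01 added for ratios) and exact permutation tests in SciPy 1.17.1. Alternatives included DESeq2 1.42.0 and limma 3.58.1. Scripts were checked on simulated counts. The members, lists and tests were chosen with earlier results of these data known. Named from each list were the 3 largest called rises and falls and genes that were not called, except 1 gene that is not reported here; Gphn, Nlgn2, Lhfpl4, Hap1 and Ubqln1 were named after their values were seen. Replicates differed by more than sampling noise (chi-square over its degrees of freedom 4.15 to 13.3).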

Additional observations from a re-analysis of the deposited data

Results flagged for a closer look

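Each of 27 measures was checked for a single E14.5 library far from the other 3 by Dixon's test, which chance alone passes in about 1 in 20 groups. Gabra4 was at 11.3 normalised CPM in E14.5 replicate 2, against 9.90 to 10.1 in the other 3. In the same library the log2 ratio of Gabra2 to Gabra4 was 1.57, against 1.907 to 1.961 in the others. Slc6a13 was at 18.1 normalised CPM in E14.5 replicate 1, the library of an earlier plug date, against 10.9 to 11.3 in the others.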

How the results depend on the processing

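All 7 members were called higher in adults under each of the 22 alternatives, which covered scaling, filters, DESeq2, limma, females only, sex as a covariate, gene classes, GC and length offsets and each library left out. The log2 fold change ranged from 0.39 to 1.21 for Gabra2 and from 4.62 to 6.37 for Gabrd. Folds moved by over 1.5 times with GC and length offsets for Gabra2 and Gabrb1, and on log2(RPKM + 0.5) for all but Gabra2, a setting that changes both the constant and the scaling, since RPKM use library totals; with 0.1 added they did so for Gabrb1, Gabrb2 and Gabrd. Gabra3 was 10.4-fold higher with 0.5 added and 11.8-fold with total counts alone, and Gabrd 24.6-fold with 0.5 added, 46.2-fold with 0.1 and 59.5-fold with total counts alone. Total-count scaling moved the median of all genes to -0.49, and the share of calls higher in adults was 48.3% with TMM, 37.1% with total counts only and 37.0% on log2(RPKM + 0.5). The count of genes called was 13409 (protein-coding genes only) to 20742 (no filter), and 17556 to 17731 with 1 library left out. With CPM in place of RPKM, the difference in share, adult minus E14.5, was -45.3 percentage points for Gabra2, 18.2 for Gabra3 and 16.3 for Gabra4, since gene length is then not divided out, against -38.3, 15.8 and 9.06 with RPKM. Leaving out 1 library at a time, these differences were -39.4 to -36.9, 15.3 to 16.3 and 8.51 to 10.0, and the Gabra2 to Gabra4 log2 ratio differed by -3.02 to -2.76. Without E14.5 replicate 1, 44 genes and no member were called by sex, the lone male being assumed to vary like the females. Replicate numbers did not pair libraries of the ages (correlations of deviations -0.0071 to 0.0031 for equal numbers, and no adult library correlated best with its own number); with a replicate block 17468 genes and all 7 members were called. Depth limits Gabrd and Gabrb2 at E14.5 most, at 31 to 124 counts.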
